A study of Mus musculus with 8 samples.

Results

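The nuclear genes that encode the proteins of the mitochondrial ribosome were followed across 8 RNA-seq libraries of mouse small intestine. Members were the genes of the deposited count table whose symbol is Mrpl or Mrps followed by a number and at most 1 letter. This gave 78 of 55421 genes, after 5 symbols of processed copies marked -ps were left out. Of the members, 49 are named Mrpl and 29 Mrps.

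All mice were wild-type for the labels' genotype and were kept at 7% oxygen for 7 days. The Hypoxia+Nitrate group (n = 4) also received 4 mM nitrate, and the Hypoxia group (n = 4) did not. Both groups were hypoxic, so no value here is from tissue at normal oxygen. The labels give neither age, sex nor strain, and they do not say that each sample is a separate animal. The p-values therefore measure the spread between these samples. Nitrate is a dietary anion and a source from which nitric oxide can be formed in the body.

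Mitochondria hold their own ribosome, the mitoribosome, which makes the few core subunits of the respiratory chain that the mitochondrial genome encodes. Its ribosomal RNAs come from that genome, whereas all of its proteins are encoded in the nucleus, made in the cytosol and imported. Some of these proteins have counterparts in bacterial ribosomes, and others are found in mitochondria alone. The small subunit reads the mRNA, and the large subunit joins amino acids and passes the growing chain out through an exit tunnel at the inner membrane. By the current naming of subunits, 51 members sit in the large subunit. Of these, 31 were counted as related to bacterial proteins and 20 as specific to mitochondria. Another 26 sit in the small subunit, 17 counted as related to bacterial proteins and 9 as specific to mitochondria. Mrps18a and Mrps18b are now named mL66 and mS40, as proteins specific to mitochondria. They were counted here as related to bacterial proteins because of their conserved fold. Mrps30 and Mrps18a carry an Mrps name but sit in the large subunit. Mrps36 is now regarded as a component of the 2-oxoglutarate dehydrogenase complex and was kept only because its symbol meets the rule.

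The libraries differed widely, and the differences touch every value below. Total counts were 8662279 to 63943036 in Hypoxia+Nitrate and 5345377 to 21835865 in Hypoxia. Messenger RNAs of the mitochondrial genome took 6.90% to 64.0% of all counts in Hypoxia+Nitrate and 0.423% to 1.06% in Hypoxia. The ribosomal DNA locus took 2.33% to 22.0% in Hypoxia+Nitrate and 7.06% to 75.7% in Hypoxia. A background density was read from 1470 receptor genes of smell and pheromone sensing on autosomes (Olfr, Vmn and Taar names), assumed to be mostly silent in gut. Scaled to exonic length, that background amounted in Hypoxia+Nitrate 1 to 4 to 2.86%, 23.2%, 19.6% and 2.74% of the counts on nuclear protein-coding genes. The same measure in Hypoxia 1 to 4 was 63.7%, 39.1%, 54.4% and 46.7%. All 8 enterocyte markers were found, none of them at 0 in every library. Their sum per 1000000 nuclear protein-coding counts was 48810, 5629, 2887 and 46300 in Hypoxia+Nitrate 1 to 4 and 1088, 2699, 293 and 243 in Hypoxia 1 to 4. The part that background and cell makeup play in the results was not tested except where values are given. Fewer cells of a type and less RNA per cell cannot be told apart in bulk tissue. Although the RNA isolation text speaks of islets, the summed level of the 4 islet markers on the same scale was 2.31 to 57.8 in Hypoxia+Nitrate and 45.3 to 75.5 in Hypoxia.

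Mitoribosomal protein genes were mostly higher in Hypoxia+Nitrate. By edgeR's quasi-likelihood test with TMM scaling, at an adjusted p of 0.05 over all genes, 49 of 78 members rose, 0 fell (0 also at an unadjusted p under 0.05, by DESeq2 and by limma-voom) and 29 were not called. Among all 35431 genes tested, 11.5% were called higher and 12% lower, and among the 20128 nuclear protein-coding genes 18.1% and 9.29%. All 78 members passed the filter on low counts, Mrpl53 only through Hypoxia+Nitrate, since it has 0 counts in every Hypoxia library. It is included among the members called higher and among those whose groups did not overlap. The members' median log2 fold change was 2.09, against -0.58 over all genes tested and 0.04 over nuclear protein-coding genes. In 42 members the lowest Hypoxia+Nitrate CPM (counts per 1000000 after TMM scaling) exceeded the highest Hypoxia CPM, and 0 members showed the reverse. For all genes tested those shares were 12% and 28.8%. The call count leaned on single libraries, for members and for all genes. Leaving out Hypoxia 1 gave 0 members, Hypoxia 2 gave 32, Hypoxia 3 gave 18 and Hypoxia 4 gave 24. The shares of all genes called higher were then 0%, 6.63%, 3.69% and 3.63%. Leaving out Hypoxia+Nitrate 1, 2, 3 or 4 gave 37, 58, 57 and 29 members, with 8.63%, 14.2%, 12.9% and 7.34% of all genes. Without Hypoxia 1 no gene of any kind was called by edgeR, while 55 members had an unadjusted p under 0.05, 12 were called without robust estimation, and their median log2 fold change was 2.14.

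**Figure D1:**
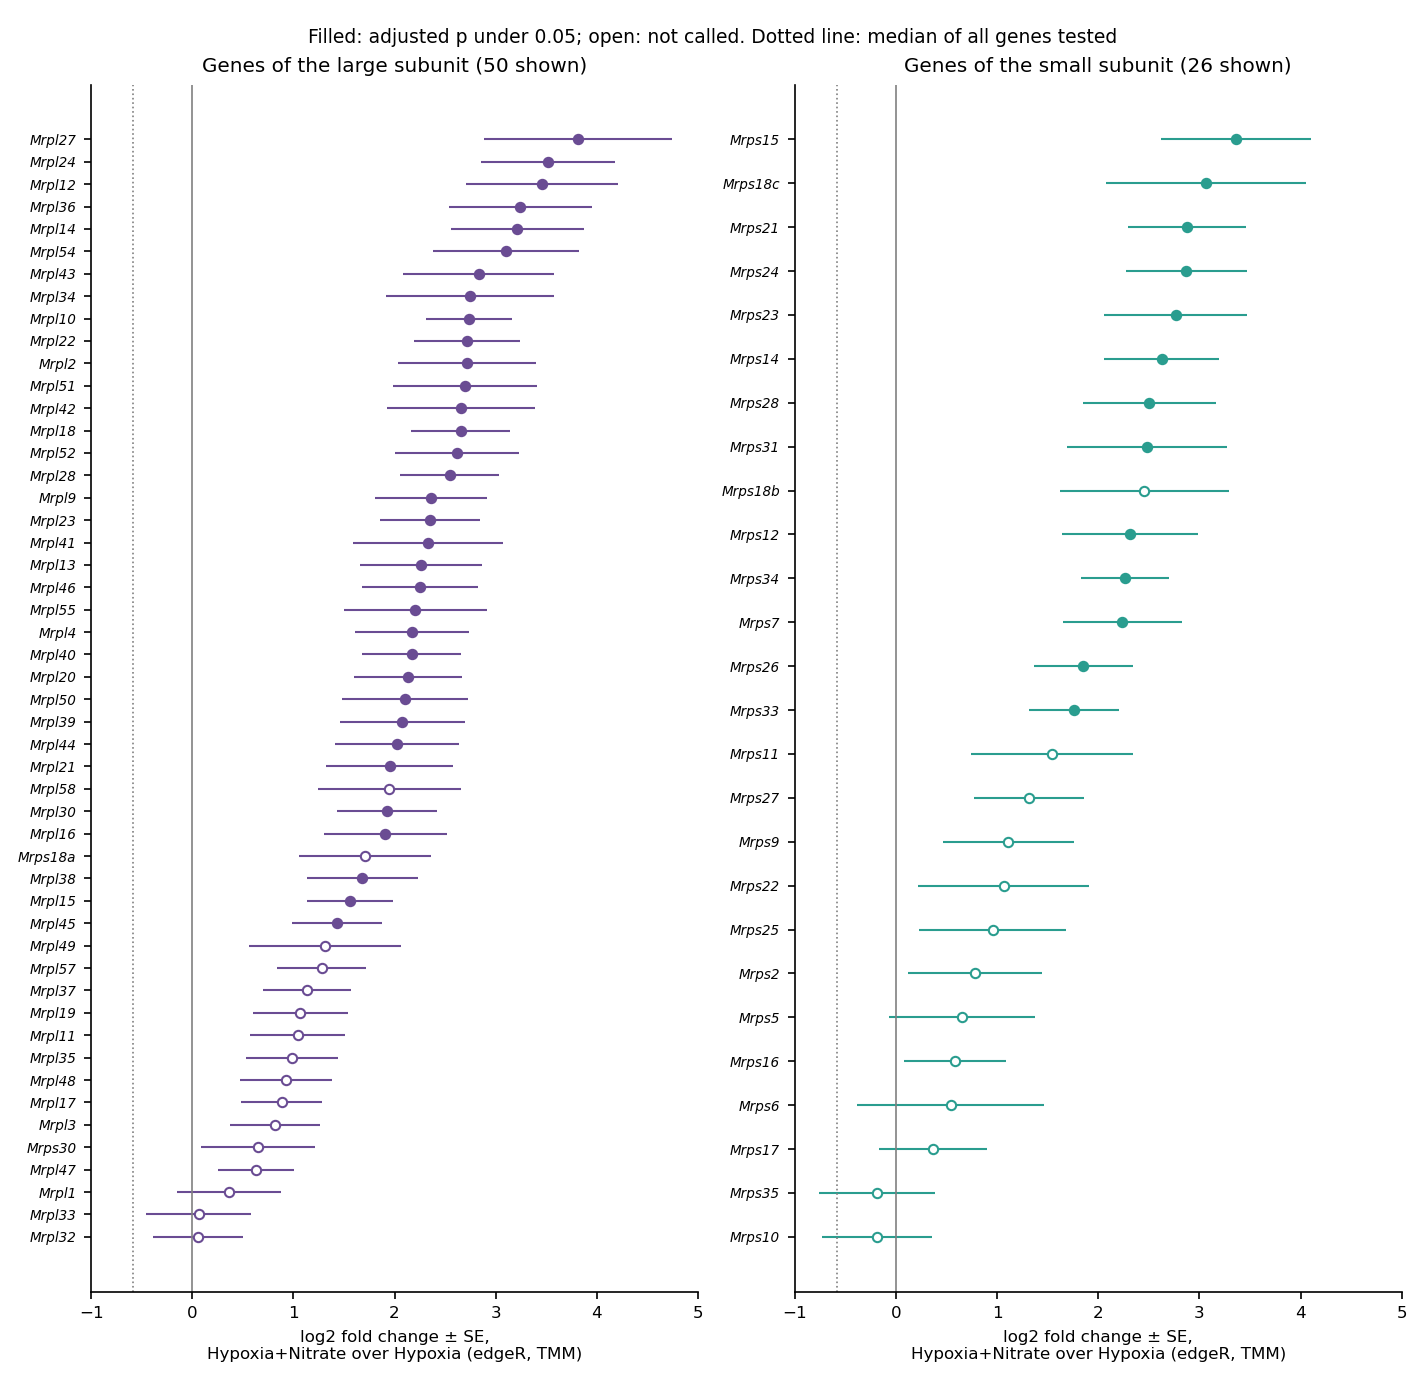
Log2 fold change (edgeR with TMM scaling, Hypoxia+Nitrate over Hypoxia, bars ± SE) of 50 large-subunit members at left and 26 small-subunit members at right; filled points have an adjusted p under 0.05. All points lie right of the dotted median of all genes tested (-0.58), and all but Mrps10 and Mrps35 (both -0.19) lie right of 0. Mrpl53, which has no Hypoxia count, and Mrps36 are not drawn.

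The size of the difference depended on what the counts were scaled to. The TMM factors themselves ran from 0.22 in Hypoxia+Nitrate 1 to 3.69 in Hypoxia 3. With library size alone the members' median log2 fold change was 0.93 (-1.07 over all genes), with RLE factors 1.85 (-0.87 over all genes) and with upper-quartile factors 1.65 (-0.94 over all genes). Library size alone left 1 member called higher, Mrpl53, which has 0 counts in every Hypoxia library. The shares in that fit were 0.584% of all genes higher and 4.29% lower. Over all genes, 4086 were called higher and 4240 lower with TMM, 3137 and 5729 with RLE factors, and 2783 and 5122 with upper-quartile factors. When nuclear protein-coding counts alone were used and scaled to their own total, the members' median was 0.64, against -1.15 over those genes. On that scale edgeR called 6 members higher (Mrpl10, Mrpl12, Mrpl14, Mrpl24, Mrpl53 and Mrps15) and 2 lower (Mrps10 and Mrps35). The background of that fit was 4.73% of 20463 genes higher and 18.2% lower. The direction was thus positive for the list's median at every scaling, but 25 of 78 members lay below 0 when set against nuclear protein-coding counts. Of the 42 members whose groups did not overlap in CPM, 15 were also apart and 27 overlapped in counts per nuclear protein-coding total. In what follows, CPM is the TMM-scaled value, and coding CPM is the count per 1000000 nuclear protein-coding counts of its library, with no TMM factor.

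Upstream sequence is shown for a few members because the promoters of nuclear genes for mitochondrial proteins are known for binding sites of nuclear respiratory factors. NRF1 binds a palindrome rich in G and C, and GABP (also called NRF2) binds an ETS motif. RefSeq windows of 250 bases before to 50 after the annotated start (GRCm38.p6) were found for 69 members. The NRF1 motif was searched as GCGC, any 2 bases and GCGC again, the ETS motif as CCGGAAG and the YY1 motif as AAGATGGC, on both strands, each counted by itself even where motifs overlapped. The stretches below are read 5′ to 3′ on the gene's strand, end before the start site and hold no annotated exon. Capitals mark the NRF1 motif in Mrpl12 and Mrpl45 and the ETS motif, on either strand, in Mrpl22, Mrpl52, Mrps18a and Mrps22.
Mrpl12, chr11:120484507-120484612, plus strand: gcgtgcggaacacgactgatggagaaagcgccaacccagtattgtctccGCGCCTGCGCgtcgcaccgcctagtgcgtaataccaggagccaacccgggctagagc
Mrpl45, chr11:97315586-97315715, plus strand: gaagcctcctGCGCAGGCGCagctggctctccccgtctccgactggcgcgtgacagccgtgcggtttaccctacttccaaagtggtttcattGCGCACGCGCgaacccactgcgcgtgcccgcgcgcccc
Mrpl22, chr11:58171534-58171660, plus strand: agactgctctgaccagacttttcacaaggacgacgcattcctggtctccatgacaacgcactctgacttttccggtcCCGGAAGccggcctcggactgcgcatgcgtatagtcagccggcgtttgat
Mrpl52, chr14:54426779-54426908, plus strand: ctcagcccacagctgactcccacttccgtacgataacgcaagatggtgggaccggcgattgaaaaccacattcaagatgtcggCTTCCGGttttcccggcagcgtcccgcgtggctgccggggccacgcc
Mrps18a, chr17:46110874-46110985, plus strand: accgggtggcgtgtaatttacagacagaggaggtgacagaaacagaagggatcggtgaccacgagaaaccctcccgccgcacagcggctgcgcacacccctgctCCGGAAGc
Mrps22, chr9:98601680-98601809, minus strand: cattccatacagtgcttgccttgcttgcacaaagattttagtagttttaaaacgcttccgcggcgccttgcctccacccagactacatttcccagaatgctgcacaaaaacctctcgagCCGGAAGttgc

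These letters were common in the members' windows. The ETS motif stood in 26 of 69 members (37.7%), against 9.93% of 27018 genes with a window. NRF1 letters stood in 14 members (20.3%), against 7.00% of genes, and the YY1 letters in 12 (17.4%), against 3.19%. The members' windows were also richer in G and C, with a median of 58.7% against 52.7%, and held a median of 21 CpG steps against 7. TATAAA was found in 5 members (7.25%), against 15.7% of genes. GGGCGG was found in 34 members (49.3%), against 38.2% of genes, and CCAAT in 27 (39.1%), against 41.1%. A letter match is a description and not a bound site. The ETS motif stood in 15 of the 42 members called higher that have a window and in 11 of the other 27. For the NRF1 motif these counts were 10 and 4, and for the YY1 motif 5 and 7.

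Among the large-subunit proteins, 35 of 51 rose, with a median log2 fold change of 2.13, while 18.1% of nuclear protein-coding genes were called higher. The class related to bacterial proteins had 21 of 31 higher (median 2.17, range 0.06 to 3.81), and the class specific to mitochondria 14 of 20 (median 2.09). Mrpl10 and Mrpl12 form the flexible stalk that recruits translation factors. Mrpl12 (ENSMUSG00000039640, chromosome 11, 120484613 to 120489065, GRCm38) had 65.7, 22.5, 21.4 and 132 CPM in Hypoxia+Nitrate 1 to 4, against 4.41, 9.09, 1.95 and 6.57 CPM in Hypoxia 1 to 4. The groups did not overlap, although Hypoxia+Nitrate 4 alone exceeded the sum of the other Hypoxia+Nitrate libraries. The log2 fold change was 3.46 (SE 0.75, edgeR adjusted p = 0.0128). Mrpl10 had 35.8, 40.3, 26.7 and 59.2 CPM in Hypoxia+Nitrate, against 5.47, 6.76, 4.69 and 7.35 CPM in Hypoxia. These groups did not overlap either, with a log2 fold change of 2.74 (SE 0.42, edgeR adjusted p = 0.0118). In coding CPM the stalk genes stayed apart as well: Mrpl10 averaged 89.9 ± 37.5 in Hypoxia+Nitrate and 31.6 ± 4.55 in Hypoxia (SD, n = 4 each), and Mrpl12 averaged 104 ± 45.1 in Hypoxia+Nitrate and 28.2 ± 14.1 in Hypoxia.

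Proteins of the exit tunnel and the catalytic centre ranged widely. Mrpl24, at the tunnel exit in bacterial ribosomes, had 43.9, 11.3, 15.2 and 68.0 CPM in Hypoxia+Nitrate, against 3.81, 4.29, 1.69 and 2.29 CPM in Hypoxia. Its groups did not overlap, and the log2 fold change was 3.52 (SE 0.66, edgeR adjusted p = 0.0118). Mrpl27, which reaches towards the peptidyl transferase centre in bacterial ribosomes, had 43.3, 9.10, 4.14 and 68.7 CPM in Hypoxia+Nitrate and 1.13, 4.29, 0.79 and 2.71 CPM in Hypoxia. Its value in Hypoxia+Nitrate 3 lay below that of Hypoxia 2, so the groups overlapped, although the log2 fold change was the highest of any member with counts in both groups (3.81, SE 0.93, edgeR adjusted p = 0.0178). The tunnel proteins Mrpl22 and Mrpl23 rose by log2 fold changes of 2.72 and 2.35. Other proteins around the tunnel exit were not called: Mrpl47 had 0.63, Mrpl17 0.89 and Mrpl32 0.06, and Mrpl3, whose bacterial counterpart reaches towards the catalytic centre, had 0.82. Mrpl45, which anchors the ribosome to the inner membrane, rose by 1.43 (SE 0.45, edgeR adjusted p = 0.0408), but its coding CPM was 32.2 to 37.4 in Hypoxia+Nitrate and 26.9 to 38.5 in Hypoxia, with overlap.

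The central protuberance, the crest of the large subunit, is built in part from Mrpl18, Mrpl38, Mrpl40, Mrpl46 and Mrpl48. Of these, Mrpl18 (log2 fold change 2.65, SE 0.49), Mrpl46 (2.25), Mrpl40 (2.17, SE 0.49) and Mrpl38 (1.68) rose, and Mrpl48 did not pass (0.93, SE 0.45, edgeR adjusted p = 0.149). Mrpl18 had 23.1, 19.6, 11.4 and 35.6 CPM in Hypoxia+Nitrate, against 5.74, 2.40, 3.43 and 2.65 CPM in Hypoxia, with no overlap. Mrpl40 had 34.1, 8.64, 23.2 and 29.4 CPM in Hypoxia+Nitrate and 4.34, 5.46, 7.48 and 3.92 CPM in Hypoxia, also without overlap, but in coding CPM its groups overlapped (30.4 to 77.2 in Hypoxia+Nitrate and 19.4 to 40.7 in Hypoxia). Other large-subunit members that rose included Mrpl28 (2.54, SE 0.49), Mrpl52 (2.62, SE 0.61) and Mrpl54 (3.10, SE 0.72). In coding CPM the groups of Mrpl28 and Mrpl52 were apart, while those of Mrpl54 overlapped. Mrpl58 is a peptidyl-tRNA hydrolase that became part of the ribosome; its log2 fold change of 1.95 (SE 0.71, edgeR adjusted p = 0.0676) was not called. Its CPM was 14.1, 2.22, 5.99 and 17.6 in Hypoxia+Nitrate and 4.47, 2.18, 0.896 and 2.77 in Hypoxia.

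Mrpl53, a subunit specific to mitochondria, had 109, 52, 40 and 293 counts in Hypoxia+Nitrate 1 to 4 and 0 in each Hypoxia library. Against a floor of 3 counts per library its CPM was at least 35.9-fold higher, and its coding CPM at least 12.0-fold higher. The gene has 790 bp of exons, of which 95 bp (12.0%) are free of other genes. It shares 695 bp with Gm42688, which held 24, 0, 66 and 86 counts in Hypoxia+Nitrate and 40, 49, 102 and 0 in Hypoxia. Reads from the shared stretch cannot be assigned from these files, so the values of Mrpl53 are uncertain. The background expected on its 95 bp was 6.45 counts over the Hypoxia libraries.

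In the small subunit, 13 of 26 members rose, with a median log2 fold change of 1.8, while 18.1% of nuclear protein-coding genes were called higher. Of the class related to bacterial proteins 8 of 17 rose (median 2.24), and of the class specific to mitochondria 5 of 9 (median 1.76). Mrps15, which binds the small ribosomal RNA, had 38.9, 5.0, 9.31 and 50.7 CPM in Hypoxia+Nitrate, against 3.41, 1.6, 1.84 and 3.19 CPM in Hypoxia. Its groups did not overlap in CPM, and it had the highest fold change of the subunit (log2 3.37, SE 0.74, edgeR adjusted p = 0.0133). In coding CPM they did, with 17.6 in Hypoxia+Nitrate 2 and 19.6 in Hypoxia 1. Mrps24, the counterpart of bacterial S3 at the mRNA entry, had 40.2, 7.33, 16.5 and 31.5 CPM in Hypoxia+Nitrate and 4.41, 4.51, 2.48 and 1.69 CPM in Hypoxia (log2 2.87, SE 0.60, edgeR adjusted p = 0.0121). Mrps21 (2.88, SE 0.58) and Mrps14 (2.63, SE 0.57) also rose without overlap in CPM; in coding CPM Mrps21 was still apart, while Mrps14 overlapped, with 23.4 in Hypoxia+Nitrate 1 and 23.8 in Hypoxia 2. Mrps12, the counterpart of the S12 protein of the decoding centre, rose by 2.31 (SE 0.67, edgeR adjusted p = 0.0322) with overlapping groups.

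Mrps34 is a subunit specific to mitochondria. Its CPM was 15.9, 18.8, 19.0 and 16.5 in Hypoxia+Nitrate and 5.01, 2.69, 1.84 and 5.06 in Hypoxia (log2 2.26, SE 0.44, edgeR adjusted p = 0.0118). In coding CPM it had 23.6, 65.9, 63.1 and 21.3 in Hypoxia+Nitrate and 28.8, 13.1, 10.03 and 25.1 in Hypoxia, with overlap. Only 22.2% of its exonic length is free of Mapk8ip3 and Nme3, so its counts are uncertain. Mrps23 (2.77, SE 0.71), Mrps26 (1.85, SE 0.49) and Mrps33 (1.76, SE 0.45) rose too, each with overlapping groups in coding CPM. Mrps36, the member regarded as no ribosomal protein, rose by 2.01 (SE 0.47, edgeR adjusted p = 0.0155), with 25.2, 33.3, 19.2 and 48.0 CPM in Hypoxia+Nitrate and 4.01, 11.6, 7.43 and 8.13 CPM in Hypoxia. Its groups, too, overlapped in coding CPM.

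The paralogs Mrps18a, Mrps18b and Mrps18c all descend from bacterial S18. Mrps18c was called higher at a log2 fold change of 3.07 (SE 0.99, edgeR adjusted p = 0.0468). Its groups overlapped, with 23.7, 1.76, 5.93 and 50 CPM in Hypoxia+Nitrate and 1.27, 5.89, 1.79 and 0.783 CPM in Hypoxia. The other paralogs were not called: Mrps18b had 2.46 (SE 0.84, edgeR adjusted p = 0.0551) and Mrps18a 1.71 (SE 0.65, edgeR adjusted p = 0.0793). The paralogs were not tested against one another.

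At the other end stood members with log2 fold changes near 0 on the CPM scale. Mrps10 had 12.9, 5.23, 3.86 and 22.2 CPM in Hypoxia+Nitrate and 10.8, 15.1, 11.1 and 13.4 CPM in Hypoxia (log2 -0.19, SE 0.54, edgeR adjusted p = 0.807). Mrps35 had 14.5, 3.87, 6.31 and 23.2 CPM in Hypoxia+Nitrate and 19.5, 8.15, 16.4 and 10.5 CPM in Hypoxia (log2 -0.19, SE 0.57, edgeR adjusted p = 0.821). Their groups overlapped widely on this scale. In coding CPM Mrps10 had 19.0, 18.4, 12.8 and 28.7 in Hypoxia+Nitrate, all below the 62.1, 73.8, 60.2 and 66.5 in Hypoxia. With that total as library size edgeR called it lower (log2 -1.74, SE 0.37, adjusted p = 0.0151), and Mrps35 too (log2 -1.77, SE 0.45, adjusted p = 0.0262). In coding CPM 40.3% of nuclear protein-coding genes were likewise wholly lower, and that fit called 18.2% lower. The Hypoxia counts of Mrps10 and Mrps35 were only 1.11 to 2.14 and 1.08 to 1.87 times the expected background. Mrpl32, which mitochondrial proteases cut to its mature form, and Mrpl33 both had a log2 fold change of 0.06 (SE 0.45 and 0.52). Mrps17 (0.37), Mrps6 (0.54), Mrps30 (0.65), Mrps25 (0.96, with 30.2% of its exons free of other genes) and Mrps22 (1.06, a gene mutated in a human mitochondrial translation disorder) were likewise not called.

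Summed over members, the share of nuclear protein-coding counts was 0.278%, 0.325%, 0.337% and 0.348% in Hypoxia+Nitrate 1 to 4, against 0.275%, 0.257%, 0.237% and 0.211% in Hypoxia 1 to 4. The groups did not overlap, but the lowest Hypoxia+Nitrate and the highest Hypoxia library were nearly level. The means were 0.322% ± 0.0308 in Hypoxia+Nitrate and 0.245% ± 0.0277 in Hypoxia (SD, n = 4 each). After the expected background was taken off members and total, the shares were 0.278%, 0.337%, 0.344% and 0.350% in Hypoxia+Nitrate and 0.312%, 0.259%, 0.228% and 0.188% in Hypoxia. The groups then overlapped, since Hypoxia 1 exceeded Hypoxia+Nitrate 1. Without that subtraction, 15 members lay higher in all Hypoxia+Nitrate libraries than in any Hypoxia library, and 4 (Mrps10, Mrps35, Mrpl33 and Mrps5) lay lower in all of them. The shares among 20128 nuclear protein-coding genes were 6.03% and 40.3%. No p is given for a sum over chosen members.

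Genes of cytosolic protein synthesis and of respiration give a scale for this share. The cytosolic ribosomal proteins' share was 6.65%, 4.93%, 6.83% and 6.07% in Hypoxia+Nitrate, against 1.46%, 2.29%, 0.395% and 0.666% in Hypoxia. Of 82 tested, 80 rose and 1 fell, with a median log2 fold change of 3.70. Nuclear genes of complex I, the first complex of the respiratory chain, held 0.356%, 0.249%, 0.259% and 0.445% in Hypoxia+Nitrate and 0.139%, 0.157%, 0.0899% and 0.0856% in Hypoxia. Of these 36 genes 33 rose, with a median of 3.21. By the same test 18.1% of nuclear protein-coding genes were called higher and 9.29% lower. Mitoribosomal counts amounted to 4.18%, 6.59%, 4.93% and 5.74% of the cytosolic ribosomal protein counts in Hypoxia+Nitrate, against 18.9%, 11.2%, 60.0% and 31.7% in Hypoxia. Background was not taken off these shares or this ratio. Summed member counts were only 1.74 to 2.65 times the expected background in Hypoxia, against 5.64 to 51.2 times in Hypoxia+Nitrate. The ratio in Hypoxia is therefore in large part one of background counts on the members. The difference between these lists was not tested.

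**Figure D2:**
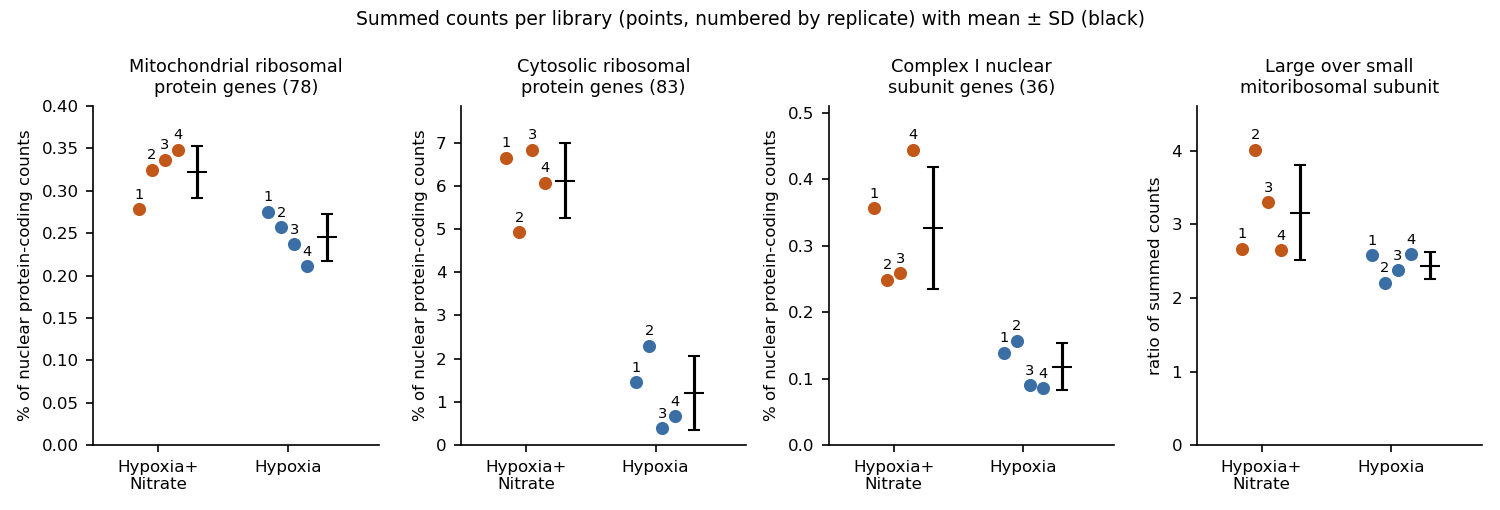
Share of nuclear protein-coding counts (percent) held by mitoribosomal, cytosolic ribosomal and complex I genes, and the ratio of summed large-subunit to small-subunit counts, in each Hypoxia+Nitrate library (left, orange) and Hypoxia library (right, blue), with mean ± SD in black (n = 4 each). The mitoribosomal share averages 0.322% in Hypoxia+Nitrate and 0.245% in Hypoxia, while the cytosolic ribosomal share lies between 4.93% and 6.83% in Hypoxia+Nitrate and between 0.395% and 2.29% in Hypoxia.

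The balance of the subunits was read from the same sums. Large-subunit members held 2.67, 4.02, 3.30 and 2.65 times the counts of small-subunit members in Hypoxia+Nitrate 1 to 4, against 2.58, 2.21, 2.37 and 2.59 times in Hypoxia 1 to 4. The groups did not overlap, yet Hypoxia+Nitrate 1 and 4 lay close to Hypoxia. With expected background taken off, the ratio was 2.69, 4.72, 3.55 and 2.67 in Hypoxia+Nitrate and 3.15, 2.31, 3.08 and 3.42 in Hypoxia, and the groups overlapped. The members' median exonic length free of other genes was 2546 bp in the large and 1906 bp in the small subunit.

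Background weighed on the members unequally between the groups. Observed counts over those expected from background had a median across members of 41.3, 5.21, 6.87 and 58.2 in Hypoxia+Nitrate 1 to 4, against 1.76, 2.78, 1.64 and 1.72 in Hypoxia 1 to 4. In Hypoxia+Nitrate 78, 64, 63 and 78 members exceeded 2 times the expected background, and in Hypoxia 32, 51, 23 and 31 did. Many Hypoxia values are therefore near the level at which silent receptor genes are counted. Mrpl10 was clear of it, at 2.93 to 5.27 times in Hypoxia, and so was Mrpl15, at 2.31 to 3.28 times. Mrpl13 and Mrps14 had Hypoxia medians of 0.497 and 0.676 times. With the background share of each library as a covariate, edgeR called 0 members and 0 of 35431 genes (members with an unadjusted p under 0.05: 5 higher and 1 lower; 0 members called without robust estimation), and the median log2 fold change was 0.18 over members and 0.18 over all genes, with a median SE of 1.25 for members. In that fit 35 of 78 members lay below 0, against 2 without the covariate. The background shares of the groups do not overlap, so group and background cannot be told apart there. With background subtracted before limma-voom, 5 of 77 members were called higher (Mrpl13, Mrpl36, Mrpl53, Mrps14 and Mrps31) and 0 lower. Counts under the expected background were set to 0 there. The Hypoxia medians of these 5 members were 0.497, 0.933, 0, 0.676 and 0.719 times background, so their calls rest in part on values set to 0. The share called in that fit was 4.24% higher and 9.23% lower among 14996 genes, and the members' median log2 fold change was 1.84.

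**Figure D3:**
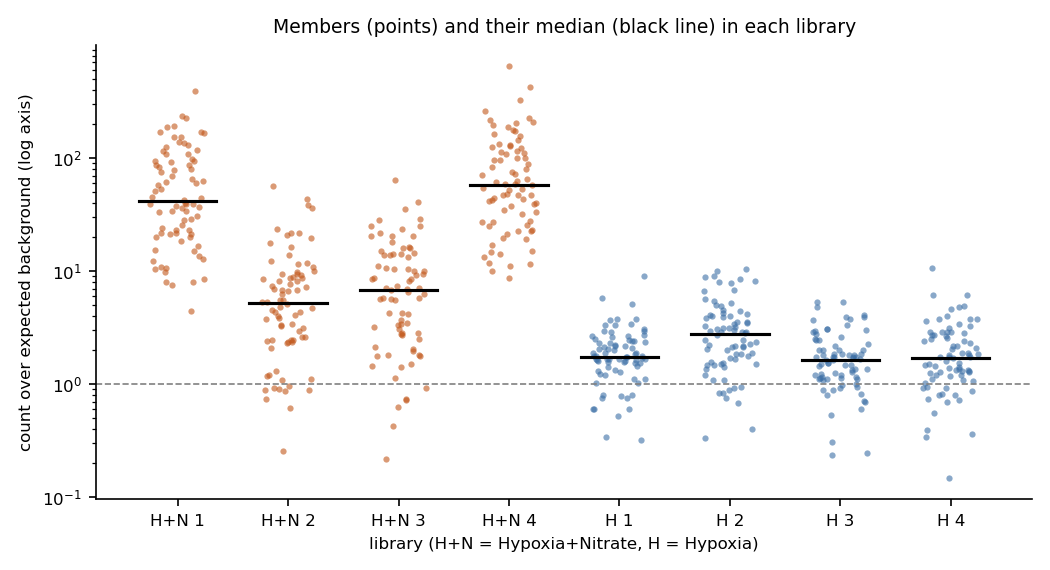
Observed count over the background expected from receptor genes (log axis) for each member with a count (points) and the median over all members (black line) in the Hypoxia+Nitrate libraries (orange, left) and the Hypoxia libraries (blue, right). Medians are 5.21 to 58.2 in Hypoxia+Nitrate and 1.64 to 2.78 in Hypoxia, close to the dashed line at 1.

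Members with short exons differed most. Across the 77 members other than Mrpl53, the log2 fold change fell with the exonic length free of other genes (Spearman -0.70, Pearson -0.70 on log2 length; a description across genes that share libraries). The same correlation was negative within the large subunit (Spearman -0.75, n = 50) and the small subunit (-0.64, n = 26), whereas over 20101 nuclear protein-coding genes it was 0.05. Of the 26 shortest members (95 to 1468 bp) 24 rose, with a median log2 fold change of 2.72. Of the 26 of middle length (1518 to 3258 bp) 18 rose, with a median of 1.94. Of the 26 longest (3291 to 8631 bp) 7 rose, with a median of 1.02. Among nuclear protein-coding genes of the same length ranges, 21.2%, 21.4% and 17.3% were called higher from short to long, with medians of -0.29, -0.14 and 0.17, so the longest members (26.9% called) lay nearer to their background than the shortest (92.3%). Expected background grows with length by its definition. The median count over background in Hypoxia+Nitrate was 65.2 for the shortest, 23.4 for the middle and 9.86 for the longest members. In Hypoxia it was 2.41, 1.79 and 1.45. The part that background plays in the relation to length was not tested. Mrpl13 and Mrpl15 rose despite lengths of 7606 and 8487 bp, and Mrps6 was not called at 1228 bp.

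**Figure D4:**
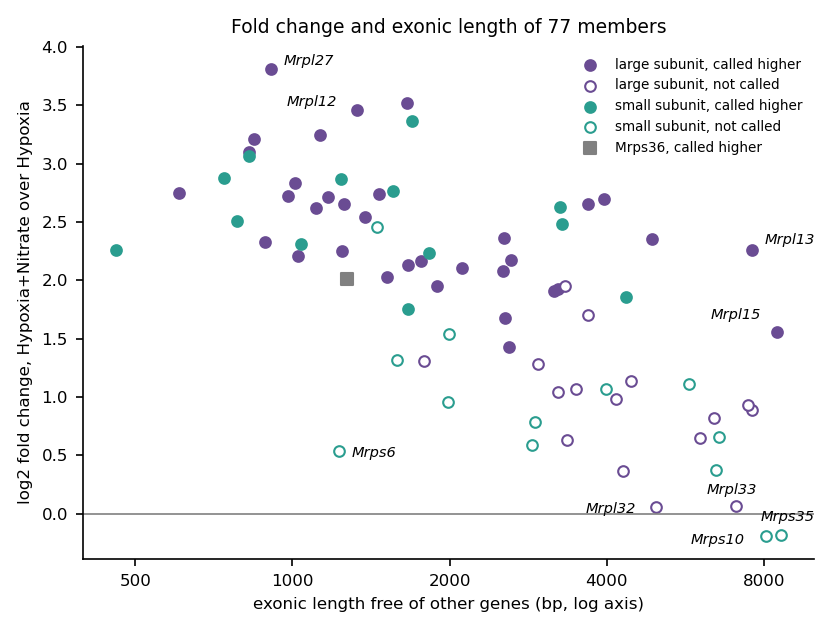
Log2 fold change (Hypoxia+Nitrate over Hypoxia) of 77 members against the exonic length that no other gene overlaps (bp, log axis), with large-subunit members in purple, small-subunit members in green and Mrps36 as a grey square; filled symbols were called higher. The points run from 2.72 at the median of the shortest members down to 1.02 at the median of the longest, with Mrps10 and Mrps35 below 0 at 8079 and 8631 bp.

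Levels per length differed widely among members. In coding CPM per kb of exons free of other genes, Mrpl53 stood highest in Hypoxia+Nitrate (125, resting on 95 bp), followed by Mrps34 (94.7, uncertain for overlap), Mrpl12 (78.4) and Mrpl10 (61.3). Mrps21 (56.7) and Mrps36 (55.0) came next and differed from Mrpl10 by less than its spread over libraries. In Hypoxia the same measure was 0 for Mrpl53, 41.9 for Mrps34, 21.2 for Mrpl12, 21.5 for Mrpl10, 21.8 for Mrps21 and 31.4 for Mrps36. Mrps22, Mrps10 and Mrps35 were lowest in Hypoxia+Nitrate, at 1.83, 2.44 and 2.49, and had 2.49, 8.13 and 8.48 in Hypoxia. Mrps22 was under the expected background in every Hypoxia library, at 0.147 to 0.944 times.

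The Hypoxia+Nitrate libraries were not alike. Hypoxia+Nitrate 1 and 4 had the low background and high mitochondrial shares given above, and Hypoxia+Nitrate 2 and 3 the opposite. Cell markers differed between these pairs too. Enterocyte markers, given above, were higher in 1 and 4. Smooth muscle markers summed to 1967, 9880, 4792 and 1666 coding CPM in Hypoxia+Nitrate 1 to 4, and endothelial markers to 17.9, 150, 193 and 45.9. The part of cell makeup in the differences between these pairs was not tested. In coding CPM, 7 members were more than 2 times as high on average in Hypoxia+Nitrate 2 and 3 as in 1 and 4, led by Mrpl19 (5.32 times), Mrpl42 (3.10 times) and Mrps34 (2.87 times). Another 16 were under 0.5 times, among them Mrps6 (0.218), Mrps18c (0.260) and Mrpl27 (0.299), and the median over members was 0.842. Mrpl19 had 37.2, 191, 185 and 33.5 coding CPM in Hypoxia+Nitrate 1 to 4 and 59.0, 119, 110 and 109 in Hypoxia; it shares 1962 bp of exons with Gcfc2, so its counts are uncertain. With Hypoxia+Nitrate 1 and 4 left out, edgeR called 24 members higher and 1, Mrps10, lower (log2 -1.39, SE 0.36, adjusted p = 0.0248), with 9.91% of all genes called higher and 16.9% lower. The members' median log2 fold change was then 1.08, against -0.59 over all genes. Of those 24, 23 were among the 49 called with all libraries. With Hypoxia 1 and 2 left out, 0 members and 0 of 41205 genes were called by edgeR, with 50 members higher at an unadjusted p under 0.05 and 11 called without robust estimation.

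**Figure D5:**
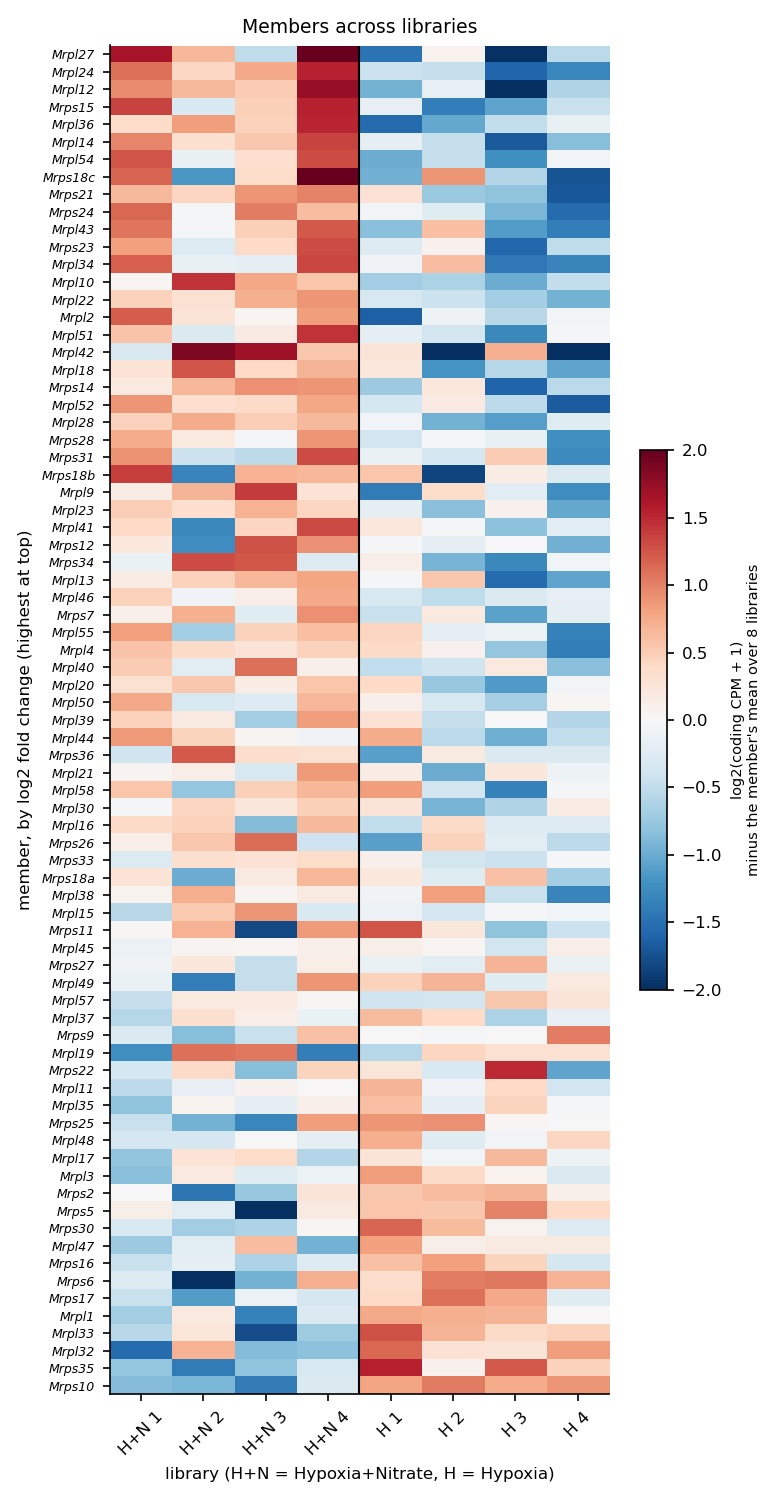
Log2 of the coding CPM plus 1, minus the member's mean over the 8 libraries, for 77 members (rows, highest log2 fold change at top) in Hypoxia+Nitrate (4 columns at left) and Hypoxia (4 columns at right). Upper rows are red at left and blue at right, lower rows such as Mrps10 and Mrps35 the reverse, and Mrpl19 is high in Hypoxia+Nitrate 2 and 3 and low in 1 and 4.

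Some members overlap the exons of neighbouring genes. Mrpl36 overlaps Ndufs6, a complex I subunit, by 30 bp on the opposite strand, and both rose (log2 3.24 and 3.79). Mrpl18 overlaps Tcp1, a cytosolic chaperonin subunit, by 141 bp, and both rose (2.65 and 3.14). Mrpl46 and Mrps11, which overlap each other by 173 bp, had 2.25 (called higher) and 1.54 (not called). Mrpl43 overlaps Twnk, the helicase of mitochondrial DNA, by 507 bp; Mrpl43 rose (2.83), and Twnk had 0.49 and was not called. Mrpl47 overlaps Ndufb5 by 616 bp, and here the neighbour rose (1.82) while Mrpl47 was not called (0.63). Whether the counting used strand is not given in the sources used here, so values of overlapping genes are uncertain.

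Of 77 other genes of mitochondrial translation on 6 lists, 14 (18.2%) rose and 0 fell by the same edgeR test, with a median log2 fold change of 0.49. The share called higher was level with the 18.1% of nuclear protein-coding genes, of which 9.29% were called lower. The 5 ribosomal proteins without an Mrp name all rose: Aurkaip1 (3.0, SE 0.68), Chchd1 (2.05, SE 0.55), Gadd45gip1 (1.66, SE 0.47), Ptcd3 (1.63, SE 0.51) and Dap3 (1.30, SE 0.39). Dap3 had 43.3, 51.1, 45.9 and 66.0 CPM in Hypoxia+Nitrate and 22.9, 22.8, 18.4 and 19.7 CPM in Hypoxia, with no overlap. In coding CPM it averaged 120 ± 54.6 in Hypoxia+Nitrate and 110 ± 15.3 in Hypoxia (SD, n = 4 each), with overlap, and of the 5 only Aurkaip1 was apart on that scale. Of 11 translation factors only the elongation factors Tufm (2.42, SE 0.60) and Tsfm (2.02, SE 0.55) rose. Of 26 assembly factors Mpv17l2 (2.58), Rbfa (2.25), Rcc1l (1.87) and Trub2 (1.34) rose. Of 12 genes of mitochondrial RNA synthesis and handling, Slirp, which stabilises mitochondrial mRNAs together with Lrpprc, rose by 3.89 (SE 0.55, edgeR adjusted p = 0.0118) and Hsd17b10, a subunit of mitochondrial RNase P, by 2.91 (SE 0.58). Lrpprc itself had 0.65 (SE 0.41) and was not called. Oxa1l, which inserts new proteins into the inner membrane, rose by 2.04 (SE 0.52). In coding CPM the groups of Mpv17l2, Slirp and Hsd17b10 were apart, while those of Tufm, Tsfm, Rbfa, Rcc1l, Trub2 and Oxa1l overlapped. Trub2 averaged 54.5 ± 8.53 coding CPM in Hypoxia+Nitrate and 54.6 ± 12.9 in Hypoxia (SD, n = 4 each).

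None of the 20 genes for mitochondrial aminoacyl-tRNA synthesis was called by edgeR (median log2 fold change 0.11; 6 had an unadjusted p under 0.05), and none by limma-voom. DESeq2 called Iars2 higher and Gatb, Mars2 and Nars2 lower. Iars2, the isoleucine enzyme, had the highest value (1.90, SE 0.68, edgeR adjusted p = 0.0656), and Gatb, a subunit of the amidotransferase that makes glutaminyl-tRNA, the lowest (-1.31, SE 0.56, edgeR adjusted p = 0.107). In coding CPM 9 of the 20 were lower in all Hypoxia+Nitrate libraries than in any Hypoxia library, and 0 were higher in all of them, against 40.3% and 6.03% of nuclear protein-coding genes. Over all 77 genes on the 6 lists, scaling to nuclear protein-coding counts turned the calls to 2 higher and 12 lower, with a median log2 fold change of -0.74, against 4.73% higher, 18.2% lower and a median of -1.15 over all genes of that fit. With RLE factors they were 10 higher and 4 lower. The ribosomal RNAs of the mitoribosome were not called: mt-Rnr1, the small-subunit RNA, had 3.42 (SE 1.38, edgeR adjusted p = 0.0924) and mt-Rnr2, the large-subunit RNA, 2.20 (SE 1.24, edgeR adjusted p = 0.202).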

How the data were processed

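Total RNA of small intestine was sequenced in 8 samples, grouped by the treatment in the labels. Per the labels' protocols, the library kit keeps strand. The submitters' processing notes name build GRCm38, featureCounts (version 1.5.0-p3), HISAT and DESeq (version 1.8.3). Neither strand setting, annotation, aligner version nor the handling of duplicates is stated there. The authors deposited whole-number counts per gene, not normalized, jointly and per sample; all 8 per-sample columns were identical to the joint table. Of 55421 IDs 55240 matched GENCODE M21, and 27 gene names had been turned into dates.

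The members and all lists were chosen with earlier results of these data known. Counts were filtered with filterByExpr (minimum count 10, minimum total 15), TMM-scaled and tested in edgeR version 4.0.16 (R version 4.3.3) by the robust quasi-likelihood test, with Benjamini-Hochberg adjustment at 0.05. SE is the log2 fold change divided by the square root of F. Alternatives used DESeq2 version 1.42.0 and limma version 3.58.1, other scalings and filters, a replicate block, left-out samples and background corrections; some were added after the data were seen. Members were named for low or high p, level per length, overlap or role, and only part are printed. Expected background is counts per kb of receptor exons times the gene's exonic length, both free of other genes. Scripts were tested on simulated counts. Intervals of counting error are not given, since reads without molecular identifiers are not independent molecules.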

Additional observations from a re-analysis of the deposited data

Results flagged for a closer look

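Member counts over expected background were 2.65 times in Hypoxia 2, far from the other Hypoxia libraries, which lay between 1.74 and 1.82 times; Hypoxia+Nitrate libraries had 5.64 to 51.2 times. In all, 74 groups of 4 values were examined for a lone extreme sample and 1 was found, fewer than the 1 in 20 that chance flags.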

How the results depend on the processing

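The 49 members called higher became 1 (Mrpl53) with library size alone and 0 with the background share as a covariate (0 also without robust estimation). With background subtracted they became 5, and with the nuclear protein-coding total as library size 6 (with 2 lower). They became 24 (with 1 lower) without Hypoxia+Nitrate 1 and 4, and 0 without Hypoxia 1 and 2 (11 without robust estimation). With 1 sample left out, the count ranged from 0 to 58 (12 without Hypoxia 1 when robust estimation was not used). Replicate numbers are shared between the groups, but the labels do not say that they pair the samples. Deviations of same-numbered samples correlated at 0.05, -0.18, 0.18 and -0.05, which cannot decide this in libraries that differ so widely. With the replicate block 0 members were called (31 without robust estimation; 51 at an unadjusted p under 0.05). RLE, upper-quartile, DESeq2, voom, no filter, a minimum CPM of 1 in 4 samples, weighted voom, nuclear protein-coding genes alone and removal of mitochondrial and ribosomal DNA genes gave 35 to 57.

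The other mitochondrial translation genes (14 higher, 0 lower) gave 4 lower with RLE, 8 higher and 4 lower with upper quartile, 0 higher with library size alone, 6 lower with DESeq2, 2 lower with voom and with weighted voom, and 3 lower among nuclear protein-coding genes alone. They gave 0 higher with the replicate block (7 without robust estimation), 0 with the covariate (0 without robust estimation), 1 higher and 1 lower with background subtracted, and 2 higher and 12 lower with the nuclear protein-coding total. Without Hypoxia+Nitrate 1 and 4, 7 were lower; without Hypoxia 1 and 2, 0 were higher (2 without robust estimation). With 1 sample left out, 0 to 25 were higher and 0 to 2 lower (3 higher without Hypoxia 1 and robust estimation).

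With the covariate, 33 of 78 members changed sign, 17 of them among the 49 called. Of the called members examined one by one, Mrpl54 (-1.03), Mrps18c (-2.58) and Mrps23 (-0.55) changed sign with the covariate, with and without robust estimation. None of them was called there (edgeR adjusted p = 0.916, 0.85 and 0.965 with robust estimation). The covariate was 2.74% to 23.2% in Hypoxia+Nitrate and 39.1% to 63.7% in Hypoxia, so group and background cannot be told apart in this fit. The group means of the members' share moved by less than the spread between samples when background was subtracted, although Hypoxia 1 moved by more and the groups then overlapped. The group means of the ratio to background moved by less than that spread when short receptor genes were left out.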
